A study of Mus musculus with 11 samples.

Results

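The genes described here are the nucleic acid sensors, interferon receptors, interferon signalling factors and interferon-induced effectors of the mouse brain, read from single nuclei of mice given a Malat1 antisense oligonucleotide (ASO). They were chosen by symbol: the numbered Tlr genes, Irf genes with 1 digit, the numbered Ifit and Gbp genes, the Oas and Oasl genes, and single genes of the same pathways, among them Ifih1, Ddx58, Eif2ak2, Ifnar1, Ifnar2, Stat2 and Isg15. This gave 50 of the 25938 genes in the table: 11 Toll-like receptor genes, 9 Irf genes, 6 Ifit genes, 7 Oas genes, 9 Gbp genes, 3 genes for cytosolic RNA sensors and the RNA-activated kinase, 4 receptor and signalling genes, and Isg15. All 50 had at least 3 unique molecular identifiers (UMIs, 1 per captured RNA molecule), with a highest total of 42482.

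Both transferrin receptor (TfR) alleles of every mouse carried human sequence (human TfR knock-in, homozygous), so that molecules made against the human receptor can bind it, and all mice were dosed intravenously 4 times at weekly intervals, with brain taken 72 h after the last dose. OTV:Malat1 (60 mg per kg, 3 libraries) is the TfR-binding conjugate that carries the ASO. nonTV:Malat1 (60 mg per kg, 3 libraries) carries the ASO without TfR binding, and Malat1 ASO (2.5 mg per kg, 2 libraries) is the free oligonucleotide. ATV:BACE1 (3 libraries) is a TfR-binding molecule with no ASO and served as the control. Its dose is 57 mg per kg in the sample labels, whereas the series' text can be read as 60. No group was left undosed, so a response shared by all injected molecules could not be measured. Libraries numbered 1 came from female mice of 2.33 months, those numbered 4 from males of 2.57 months and those numbered 5 from males of 2.33 months, in each group that has the number. The number also matched the deposited batch, so batch, sex and age cannot be told apart. The labels give the region as posterior brain, while the deposited nucleus table names cortex.

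Innate sensing starts with receptors that bind foreign or misplaced nucleic acid. Tlr3, Tlr7, Tlr8, Tlr9 and Tlr13 act in endosomes, and Ifih1 (MDA5), Ddx58 (RIG-I) and Eif2ak2 (PKR) act on RNA in the cytosol. Both routes lead to Irf3, Irf7 and type I interferon, which binds a receptor made of Ifnar1 and Ifnar2 and acts through a complex that holds Stat2 and Irf9. That complex binds the interferon-stimulated response element (ISRE) and raises effectors such as Isg15 and the Ifit, Oas and Gbp families. Oligonucleotides that reach endosomes can meet the same Toll-like receptors. A sum over nuclei cannot tell fewer cells of a type from less RNA per cell.

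The 11 libraries held 7546 to 13840 nuclei each (110304 in all) and 33235994 to 43972886 UMIs. The 50 genes took 112367 UMIs, or 275 CPM (UMIs per 1000000 UMIs of a library or class), and 246 to 290 CPM in a single library. Malat1, the ASO's target, took 4.00% to 5.03% of the UMIs in the OTV:Malat1 libraries, 7.45% to 8.38% in ATV:BACE1, 7.49% to 8.39% in nonTV:Malat1 and 7.87% to 8.15% in Malat1 ASO. Nuclei carried deposited cell classes: neurons were 69.1% of nuclei, oligodendrocytes 12.98%, astrocytes 11.5%, vascular endothelium 1.00%, leptomeningeal cells 1.69%, pericytes 0.843%, microglia 1.07%, perivascular macrophages 0.113%, glia 1.38% and vascular smooth muscle 0.299%. The class labelled pericytes carried endothelial markers at 10958 CPM, close to the 13482 of the endothelium, beside 5269 for pericyte markers. The class labelled leptomeningeal cells carried choroid plexus markers at 1356 and oligodendrocyte markers at 1306 CPM, above its own markers at 1072. Such levels were not particular to it: choroid plexus markers ran from 368 CPM in neurons to 4351 in glia, and microglia held 1554 of them and 2051 of oligodendrocyte markers beside their own at 5090. Vascular smooth muscle carried pericyte markers at 4191, above its own at 1333. Whether these classes mix cells was not tested. Of 108788 distinct barcodes, 1495 (1.37%) occurred in 2 or more libraries.

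Several members carry letters that match the binding site of the interferon-activated factor complex just upstream of their start. The 250 bases before the start are shown for Isg15, Ifit1 and Gbp3, which hold such a match, and for Oasl2, which does not (RefSeq, GRCm38.p6, read 5′ to 3′ on the gene's strand). Capitals mark the ISRE letters GAAANNGAAA on either strand, where N is any base and matches can overlap.
Isg15: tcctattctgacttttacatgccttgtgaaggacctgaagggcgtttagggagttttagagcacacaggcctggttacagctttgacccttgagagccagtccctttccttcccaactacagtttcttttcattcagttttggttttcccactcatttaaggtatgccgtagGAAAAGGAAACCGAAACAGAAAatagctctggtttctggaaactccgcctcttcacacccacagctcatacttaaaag
Ifit1: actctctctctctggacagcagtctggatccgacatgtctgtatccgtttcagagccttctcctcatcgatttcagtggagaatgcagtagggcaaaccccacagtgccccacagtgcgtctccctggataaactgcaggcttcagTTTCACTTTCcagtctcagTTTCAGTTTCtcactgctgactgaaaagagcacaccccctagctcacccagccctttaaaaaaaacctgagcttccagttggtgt
Gbp3: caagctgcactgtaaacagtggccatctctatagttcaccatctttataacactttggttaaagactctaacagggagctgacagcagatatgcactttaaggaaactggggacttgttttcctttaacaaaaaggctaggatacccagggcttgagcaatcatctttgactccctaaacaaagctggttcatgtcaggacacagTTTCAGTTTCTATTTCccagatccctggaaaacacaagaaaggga
Oasl2: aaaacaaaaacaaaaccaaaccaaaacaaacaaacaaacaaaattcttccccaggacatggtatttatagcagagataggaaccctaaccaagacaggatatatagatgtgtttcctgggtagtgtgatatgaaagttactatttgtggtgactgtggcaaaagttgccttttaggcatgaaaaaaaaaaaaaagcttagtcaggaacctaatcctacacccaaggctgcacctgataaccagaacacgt
These windows are chr4:156200819-156201068 (minus strand) for Isg15, chr19:34640639-34640888 (plus strand) for Ifit1, chr3:142559794-142560043 (plus strand) for Gbp3 and chr5:114896684-114896933 (plus strand) for Oasl2. RefSeq lists a further start for Gbp3, and its window holds no match. Isg15, a ubiquitin-like modifier, has 3 overlapping matches, beginning 78, 72 and 66 bases before the start. Ifit1, which binds RNA with a foreign 5′ end, has 2, at 104 and 85 bases. Gbp3, a guanylate-binding protein, has 2 that overlap, at 45 and 39 bases.

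A RefSeq promoter was found for 41 of the 50 members, and 18 of the 41 (43.9%) held the ISRE letters, against 936 of 27025 genes (3.46%). The letters of the gamma-activated site (GAS), TTCNNNGAA, occurred in 11 of 41 (26.8%) against 2197 genes (8.13%). A match is a run of letters and does not show that a factor binds there. Members with the ISRE letters were Gbp2, Gbp2b, Gbp3, Gbp5, Gbp7, Ifit1, Ifit1bl1, Ifit1bl2, Ifit3, Ifit3b, Irf2, Isg15, Oas1a, Oas1c, Oas1g, Oas3, Stat2 and Tlr6. The Ifit genes lie together on chromosome 19 between 34550694 and 34650009, and the Gbp genes in a cluster of 5 on chromosome 3 (142493978 to 142638008) and of 4 on chromosome 5 (105014150 to 105293698; GRCm38). Ifit1 and Ifit1bl2 are transcribed away from each other with 145 bases between their nearest starts, and both Ifit1 matches lie in the window of each gene at these starts.

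At the level of cell classes, the interferon-induced effectors were highest in endothelium and the class labelled pericytes. The Toll-like receptors were highest in perivascular macrophages and microglia. The class labelled pericytes carried endothelial markers at 10958 CPM beside 5269 for pericyte markers. Which cells gave its effector RNA was not tested. Vascular smooth muscle carried pericyte markers at 4191 CPM and endothelial markers at 1243. The 23 effector genes (Isg15 and the Ifit, Oas and Gbp families) summed to 767 CPM in endothelium and 685 in pericytes. The same sum was 303 in perivascular macrophages (42 UMIs), 208 in leptomeningeal cells, 93.0 in vascular smooth muscle (33 UMIs), 87.0 in microglia, 48.3 in astrocytes, 38.4 in glia, 24.3 in oligodendrocytes and 19.9 in neurons. For the 11 Toll-like receptor genes the order differed, with 426 in perivascular macrophages (59 UMIs), 328 in microglia, 63.5 in astrocytes and 4.12 in neurons. These levels describe the libraries and carry no test, since the classes were named from the same expression values.

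Isg15 averaged 167 ± 49.9 CPM in endothelium (SD over 11 libraries, range 83.2 to 230.5) and 148 ± 41.7 in pericytes. It averaged 2.45 ± 0.337 in neurons and 8.26 ± 9.29 in microglia, so the endothelial and neuronal ranges did not come near each other. Ifit1 averaged 55.9 ± 15.4 in endothelium and 2.18 ± 0.673 in neurons, and microglia held 0 UMIs, which allows up to 2.33 CPM. Oasl2, a relative of the 2′-5′ oligoadenylate synthetases, averaged 97.0 ± 36.1 in endothelium and 0.847 ± 0.247 in neurons. Gbp3 averaged 61.7 ± 30.2 and 0.312 ± 0.103 in the same classes, and Gbp7 86.6 ± 39.5 and 0.942 ± 0.176. The vascular level of these effectors was seen in every group, and the lowest and the highest endothelial values of Isg15 both came from controls.

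Among the 8 classes with at least 20 nuclei in every library, Ifnar1, Ifnar2 and Stat2 were also highest in endothelium. Their pooled levels there were 9.17, 15.9 and 3.02 times those in neurons, against 26.3 times for Ifit1 and 71.5 times for Isg15. Ifnar1 averaged 159 ± 32.8 CPM in endothelium against 17.4 ± 1.12 in neurons, and Ifnar2 280.5 ± 60.5 against 17.4 ± 1.41, with 142 ± 38.2 in microglia. Stat2 averaged 67.6 ± 22.0 in endothelium, 51.4 ± 25.0 in pericytes and 22.0 ± 1.35 in neurons. For Ifnar1, Ifnar2 and Stat2, endothelium and pericytes differed by less than the spread between libraries. Irf7, the factor that amplifies interferon production, averaged 35.75 ± 17.6 in pericytes, 27.3 ± 18.9 in endothelium and 0.443 ± 0.138 in neurons, with a pooled ratio of endothelium to neurons of 70.7. Irf3, which is present before any signal, was spread more evenly, at 59.9 ± 17.5 in leptomeningeal cells, 46.2 ± 23.7 in endothelium and 20.03 ± 3.15 in neurons.

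Sensors differed in where their RNA was found. Tlr7, an endosomal receptor for single-stranded RNA, averaged 141 ± 41.5 CPM in microglia, against 0.769 ± 0.232 in neurons. Among the 8 classes with at least 20 nuclei in every library, microglia were highest in 11 of 11 libraries. Outside them, perivascular macrophages pooled over libraries stood at 151 CPM (21 UMIs), beside 150 in microglia pooled the same way. Tlr3, the endosomal receptor for double-stranded RNA, averaged 59.1 ± 11.3 in astrocytes and 52.6 ± 24.9 in microglia, a difference smaller than its spread. The cytosolic sensors Ifih1 and Ddx58 averaged 51.5 ± 21.4 and 62.9 ± 29.2 in endothelium, and 1.54 ± 0.230 and 4.66 ± 0.547 in neurons. Tlr9, the receptor for unmethylated CpG DNA, had 7 UMIs in all libraries together and could not be tested. Irf8, a factor of the macrophage lineage, averaged 193 ± 40.3 in microglia and was highest there in 11 of 11 libraries among the same 8 classes, as was Irf5.

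Among the 8 classes present with at least 20 nuclei in every library, 37 of the 50 members had at least 20 UMIs in the class where their pooled level was highest. That class was endothelium for 17 of them (Gbp2, Gbp3, Gbp4, Gbp5, Gbp7, Gbp8, Gbp9, Isg15, Oasl2, Ifit1, Ddx58, Eif2ak2, Ifnar1, Ifnar2, Irf1, Irf2 and Stat2) and pericytes for 7 (among them Ifih1, Oas1a, Irf7, Irf9, Ifit3 and Ifit3b). It was microglia for 7 (Tlr1, Tlr4, Tlr5, Tlr7, Tlr13, Irf5 and Irf8), leptomeningeal cells for 4 (Gbp6, Oas2, Irf3 and Ifit2), astrocytes for Tlr3 and neurons for Oas3. Some of these ranks held in few single libraries. Endothelium was highest for Irf2 in 2 of 11 libraries, and leptomeningeal cells for Irf3 in 3 of 11. Pericytes were highest for Oas1a in 3 of 11 and for Ifih1 in 4 of 11. For Oas3 the order could not be told at this depth: its 29 UMIs were all in neurons (0.0811 CPM), and the 0 UMIs of the other classes allow 0.142 CPM in astrocytes and more in the rest. The map of levels by class shows these 2 blocks. Reads of near-identical copies (Ifit3 and Ifit3b, Oas1a and Oas1g, Gbp2 and Gbp2b) and of the overlapping genes Gbp4, Gbp8 and Gbp9 may be split between them, so their single values are uncertain.

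**Figure D1:**
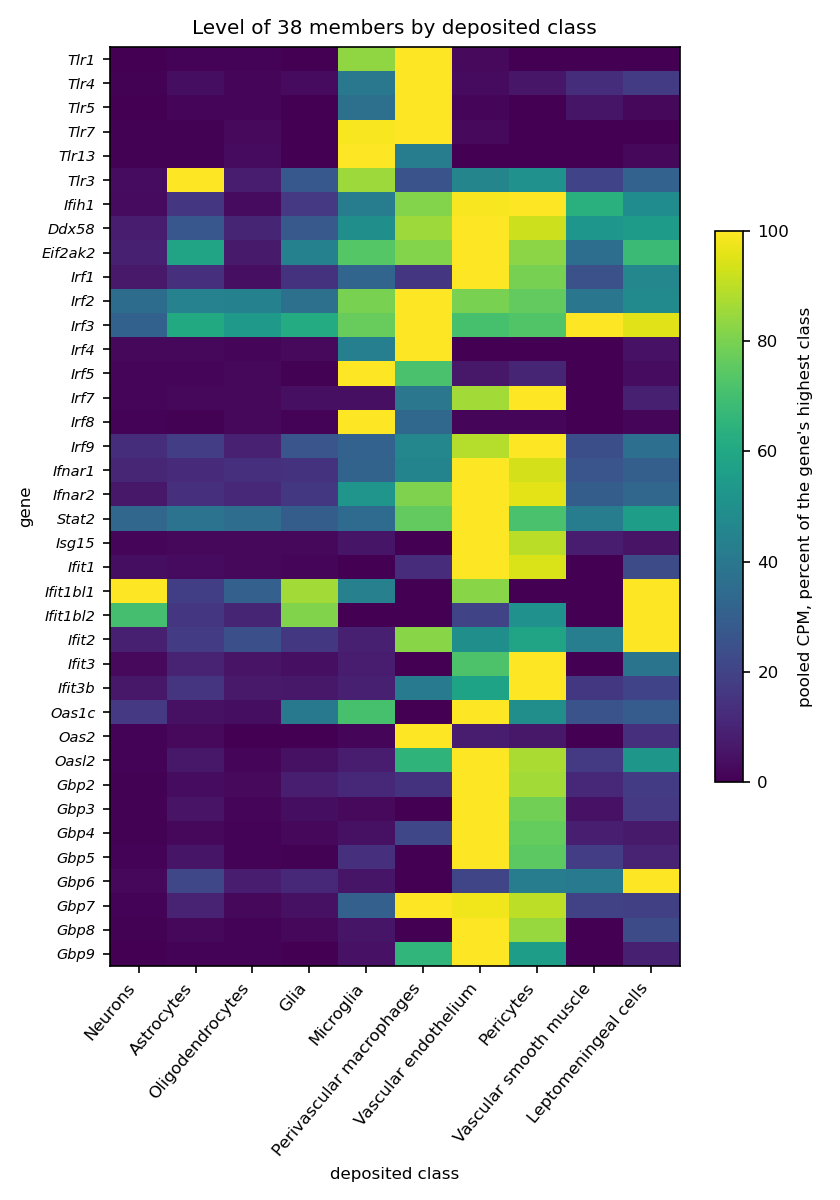
Level of 38 of the 40 members tested in all nuclei (rows) in the 10 deposited classes (columns), as CPM pooled over 11 libraries and drawn as percent of the gene's highest class. Most Tlr genes are brightest in microglia and perivascular macrophages, and most effector genes in endothelium and pericytes; perivascular macrophages and vascular smooth muscle are the smallest classes, so their colours rest on few UMIs.

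Members with and without the ISRE letters overlapped in how far their level in endothelium exceeded that in neurons. The ratio of pooled level in endothelium to neurons ran from 0.291 to 185 over 15 members with the letters (median 26.3) and from 2.25 to 118.5 over 19 without (median 12.4). These leave out members with 0 UMIs in endothelium, 3 with the letters (Oas3, Gbp2b and Oas1g) and 4 without (Irf4, Tlr13, Tlr9 and Tlr8). With those at 0 the medians were 10.3 over 18 and 9.17 over 23, and with each at the 2.19 CPM that 0 UMIs allow they were 28.8 and 13.3, so the order of the sets by size is not read. The median over 17748 genes with UMIs in both classes was 1.23. Oasl2, with no match in its window, lay at the top of the set without the letters. Ifit1 stood at 57.0 CPM in endothelium and 2.17 in neurons, whereas its divergent neighbour Ifit1bl2, which shares both matches, stood at 0.73 (1 UMI) and 2.51. RefSeq lists a further start for Ifit1bl2, and the window of that start holds no match. Some of these ratios rest on 1 UMI in endothelium.

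**Figure D2:**
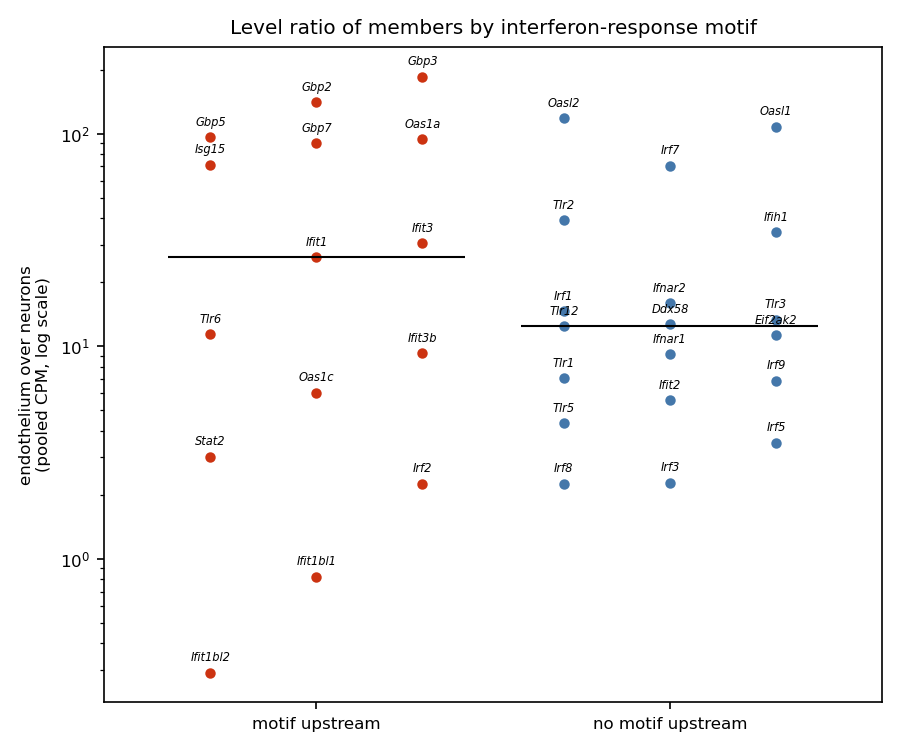
Ratio of pooled level (CPM) in vascular endothelium to neurons on a log axis, 1 point per member, for 15 members with the ISRE letters in the 250 bases upstream and 19 without; points are spread sideways for reading only and horizontal lines are medians of the points drawn; 3 members with the letters and 4 without, at 0 UMIs in endothelium, are not drawn. The medians drawn are 26.3 and 12.4, and the 2 sets overlap from 2.25 to 118.5.

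The design asks whether repeated dosing with an ASO, and above all its delivery into brain cells by OTV:Malat1, moved these genes. In sums over all nuclei, no member passed the test in OTV:Malat1 against ATV:BACE1. Of the 50 members, 40 had enough counts to test, edgeR's quasi-likelihood test called 0 of 40 (0% of 21409 genes were called), and 1 of 40 had an unadjusted p under 0.05 (0.752% of all genes). DESeq2 called 0 members (0.00467% of genes) and had 1 at an unadjusted p under 0.05 (0.495%), and edgeR with the replicate number as a block called 0 (0% of genes) and had 1 (3.77%). Estimates were above 0 for 22 members and below 0 for 18, with a median log2 difference of 0.0074.

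Isg15 stood at 4.86, 2.30 and 4.15 CPM in ATV:BACE1 and at 3.96, 3.57 and 3.21 in OTV:Malat1. The 3 OTV:Malat1 values lay inside the control range, and the log2 difference was -0.10 (95% interval -0.72 to 0.52). Ifit1 stood at 1.87, 2.24 and 3.53 in ATV:BACE1 and at 2.66, 2.58 and 2.70 in OTV:Malat1, a log2 difference of 0.015 (-0.49 to 0.52). Again the controls spread more widely than the treated libraries and enclosed them. Oasl2 stood at 2.25, 1.84 and 2.21 against 2.27, 1.95 and 2.00, a log2 difference of -0.058 (-0.58 to 0.46). For this gene too the groups overlapped.

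Sensors of RNA in the cytosol also overlapped between these groups. Ifih1 stood at 2.76, 2.24 and 2.53 CPM in ATV:BACE1 and 3.14, 3.06 and 2.00 in OTV:Malat1 (log2 difference 0.083, -0.37 to 0.54). Ddx58 stood at 6.21, 5.34 and 6.18 against 5.87, 6.49 and 5.70 (-0.015, -0.28 to 0.25), and Eif2ak2 at 6.13, 7.52 and 8.39 against 7.03, 9.94 and 9.67 (0.22, -0.19 to 0.64). At least 1 OTV:Malat1 library of each gene lay inside the range of the controls or below it. The replicate number pairs the libraries by batch, and within batches Eif2ak2 was higher than the control in 3 of 3 for OTV:Malat1 and in 3 of 3 for nonTV:Malat1. With the batch as a block the OTV:Malat1 difference was 0.22 (SE 0.106, -0.0089 to 0.45, edgeR unadjusted p = 0.0581, adjusted p = 1), and that of the 3 ASO groups together 0.23 (SE 0.0902, unadjusted p = 0.0254, adjusted p = 0.628). In a count added after the data were seen, 7 of 40 members were higher in OTV:Malat1 in every batch (18.9% of genes were) and 1 lower (4.74%). Tlr3 differed by -0.12 (-0.47 to 0.23) on the log2 scale and Irf7 by -0.11 (-0.80 to 0.58).

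**Figure D3:**
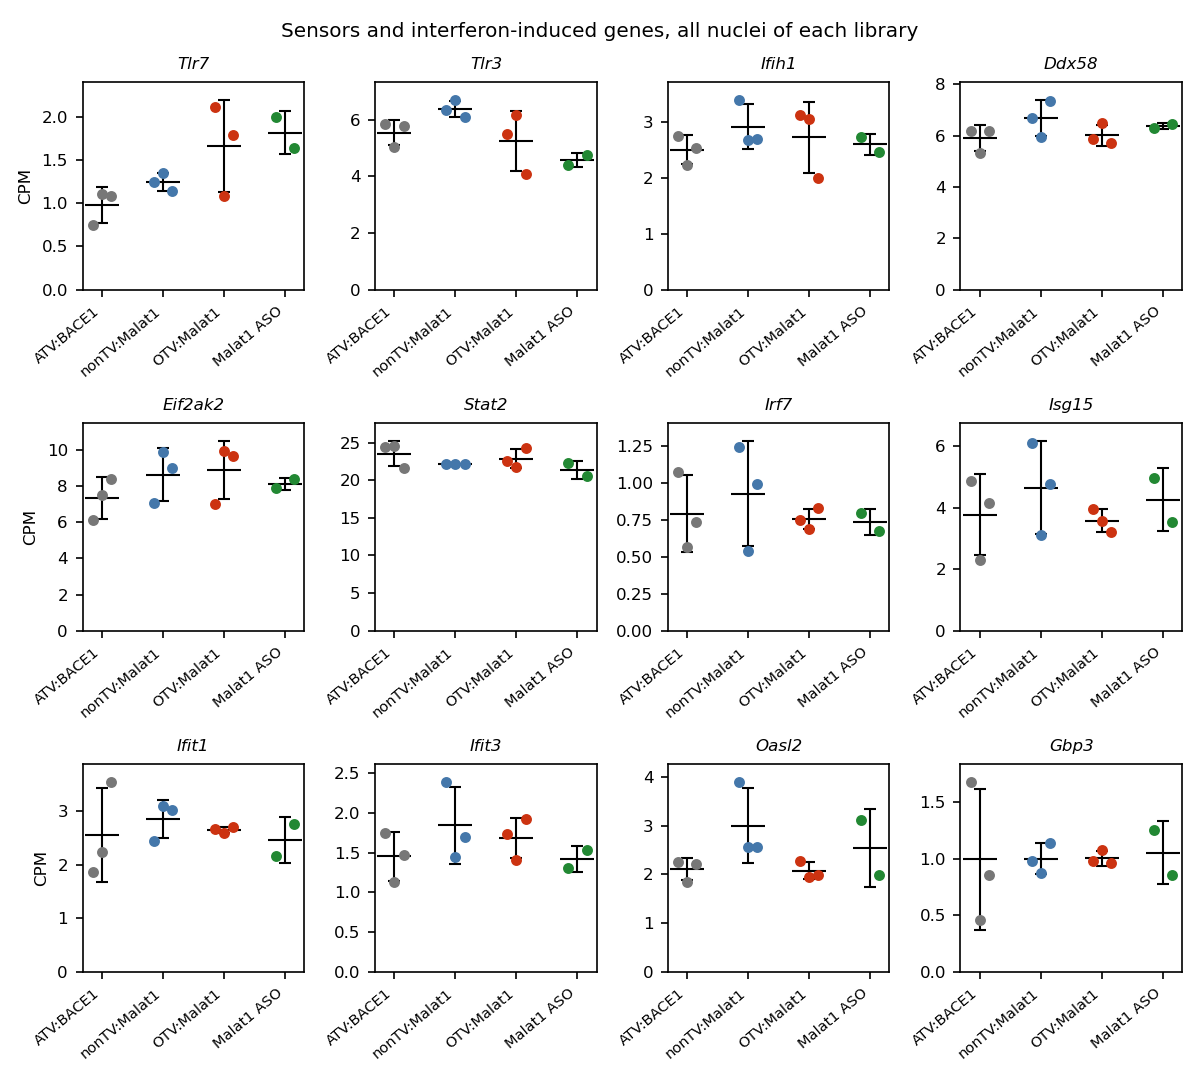
CPM in all nuclei for 12 sensors and interferon-induced genes, 1 point per library, with the group mean (line) and SD (bars); each panel has its own axis from 0. Points of OTV:Malat1 and ATV:BACE1 overlap in all 12 panels; for Tlr7, 2 of 3 OTV:Malat1 libraries and both Malat1 ASO libraries lie above the ATV:BACE1 libraries.

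The intervals show what size of change the edgeR fit without the replicate block allows in sums over all nuclei. Differences between batches stay in the spread of that fit, and the same holds for the intervals of the class sums. Neurons were 69.1% of these nuclei, so a change confined to a rare class is diluted in the sums. Of the 1666 UMIs of Isg15, for example, 240 came from endothelium. For 33 of the 40 members the 95% interval of OTV:Malat1 against ATV:BACE1 lay below a 2-fold rise, and for 23 it lay below a 1.5-fold rise. For 31 it lay within 2-fold in both directions. Members with tight intervals included Stat2 (-0.090, -0.32 to 0.14), Ifnar2 (-0.11, -0.38 to 0.17), Ifnar1 (-0.15, -0.36 to 0.063), Irf3 (0.0038, -0.37 to 0.38), Ifit2 (0.0099, -0.44 to 0.46) and Gbp7 (-0.15, -0.68 to 0.38). Gbp3 (-0.023, -0.81 to 0.77) and Ifit3 (0.18, -0.32 to 0.68) also stayed under the 2-fold bound. The 7 members whose interval reached a 2-fold rise included Tlr1, Tlr5, Tlr7, Tlr13, Irf4 and Oas2. A missed threshold does not show equal levels, and the 10 untested members (Tlr2, Tlr6, Tlr8, Tlr9, Tlr12, Oasl1, Oas1a, Oas1g, Oas3 and Gbp2b) could not be tested at this depth.

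**Figure D4:**
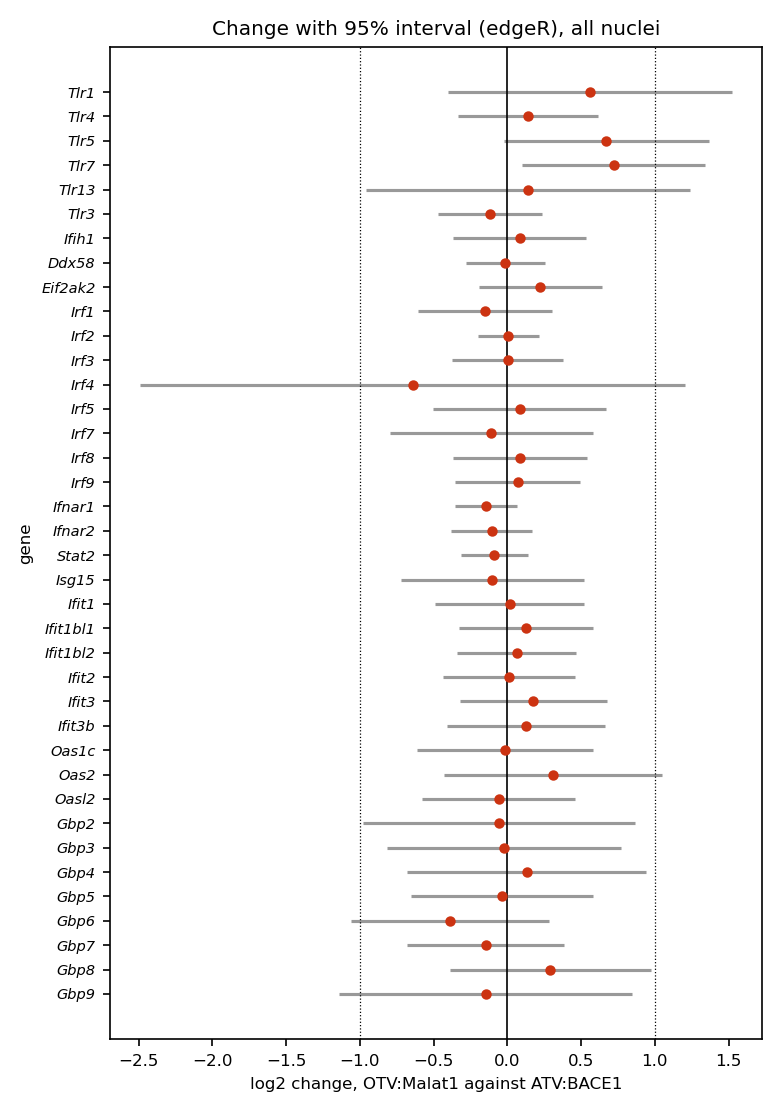
Log2 difference of OTV:Malat1 from ATV:BACE1 in all nuclei for 38 of the 40 tested members (point) with its 95% interval (line). The intervals are from edgeR without the replicate block, and dotted lines mark a 2-fold change each way. The intervals of 32 of these members end below the upper dotted line, and Tlr7 is the member whose interval excludes 0.

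Tlr7 had the smallest unadjusted p of OTV:Malat1 against ATV:BACE1. It stood at 0.743, 1.11 and 1.09 CPM in ATV:BACE1 replicates 1, 4 and 5 (31, 39 and 37 UMIs), at 1.24, 1.35 and 1.14 in nonTV:Malat1, at 2.11, 1.08 and 1.79 in OTV:Malat1 (93, 36 and 69 UMIs) and at 2.00 and 1.64 in Malat1 ASO. OTV:Malat1 replicates 1 and 5 were above their batch's control and replicate 4 was level with it. The log2 difference was 0.72 (SE 0.282, interval 0.10 to 1.34, edgeR unadjusted p = 0.0265, adjusted p = 1), and 0.51 to 0.94 when each library was left out. Malat1 ASO against ATV:BACE1 gave 0.89 (SE 0.309, unadjusted p = 0.0148, adjusted p = 1). The 3 ASO groups together gave 0.65 (SE 0.243, unadjusted p = 0.022, adjusted p = 1), and these comparisons share the control libraries. Tlr7 lies on chromosome X (167304929 to 167330558, GRCm38). Every group has a replicate 1 library, which came from female mice, and the part of sex in these differences was not tested.

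Tlr7's values and the share of microglia were high together in some libraries and not in others, and a link was not tested. OTV:Malat1 replicate 1 (1.91%) and Malat1 ASO replicate 1 (2.01%) had the highest shares of microglia and also the highest Tlr7 values over all nuclei. OTV:Malat1 replicate 5 had the lowest share of all libraries (0.535%), with Tlr7 above its batch's control. nonTV:Malat1 replicate 1 had 1.37%, with Tlr7 below that of OTV:Malat1 replicate 5. Microglia were 0.740%, 1.01% and 0.621% of nuclei in ATV:BACE1, 1.37%, 1.09% and 0.881% in nonTV:Malat1, 1.91%, 0.888% and 0.535% in OTV:Malat1, and 2.01% and 0.899% in Malat1 ASO. The nonTV:Malat1 share was above that of its batch's control in 3 of 3 batches. Summed microglial markers (10 of 10 genes detected) ran from 116 to 169 CPM over all nuclei in ATV:BACE1, 116 to 181 in nonTV:Malat1, 145 to 196 in OTV:Malat1 and 131 to 173 in Malat1 ASO. Within microglia Tlr7 stood at 134, 126 and 202 in ATV:BACE1 and 202, 161 and 128 in OTV:Malat1, which overlapped (log2 difference 0.14, -0.58 to 0.85, unadjusted p = 0.697). Within neurons it stood at 0.445, 0.638 and 0.422 against 1.01, 0.695 and 1.14, which did not overlap (0.88, SE 0.293, 0.24 to 1.52, unadjusted p = 0.0116, adjusted p = 1). Non-overlap on the higher side was found for 2.64% of genes in neurons. Microglial markers in the neuronal sums ran from 99.6 to 153 in ATV:BACE1 and from 109 to 181.5 in OTV:Malat1, and their part in the result was not tested.

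Tlr5, the flagellin receptor, was the member with the next smallest p. It stood at 0.240, 0.170 and 0.265 CPM in ATV:BACE1 (10, 6 and 9 UMIs) and 0.409, 0.360 and 0.337 in OTV:Malat1 (18, 12 and 13 UMIs). The log2 difference was 0.67 (SE 0.315, -0.023 to 1.36, edgeR unadjusted p = 0.0567, adjusted p = 1). It was the 1 member of 40 whose OTV:Malat1 libraries were all above all controls, and 2.93% of genes were. No member was below all controls (0.682% of genes).

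In nonTV:Malat1 against ATV:BACE1, 31 estimates were above 0 and 9 below, with a median log2 difference of 0.17, and edgeR called 0 of 40 (0% of genes). Over all genes, too, more were higher in every batch (17.6%) than lower (10.3%), which is a different measure from the sign of an estimate. Whether the members lean higher more than all genes do was not tested. At an unadjusted p under 0.05 there were 0 members with edgeR (0.901% of genes), 0 with DESeq2 (0.696%) and 1 with the replicate block (5.28%), and the last 2 also called 0 (0% of genes). Oasl2 stood at 3.89, 2.56 and 2.55 CPM, above the 2.25, 1.84 and 2.21 of ATV:BACE1 (0.50, SE 0.233, unadjusted p = 0.0551, adjusted p = 1; 0.0136 unadjusted with the block). Gbp8 gave 0.55 (unadjusted p = 0.0885). Isg15 stood at 6.09, 3.10 and 4.78 in nonTV:Malat1, and overlapped with the 4.86, 2.30 and 4.15 of the controls, but was higher in 3 of 3 batches (0.30 with the block, unadjusted p = 0.107, adjusted p = 0.952). In all, 12 of 40 members were higher in every batch (17.6% of genes were) and 1 lower (10.3%). Gbp8, Oasl2, Tlr3 and Tlr7 did not overlap with the control libraries, 4 of 40 against 2.58% of genes.

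In Malat1 ASO against ATV:BACE1, 20 estimates were above 0 and 20 below, with a median of -0.00045, and 0 of 40 members were called with edgeR (0% of genes), DESeq2 (0.00934%) or the replicate block (0.0187%). At an unadjusted p under 0.05 each tool had 1 member, against 1.75%, 1.33% and 8.87% of genes. With 2 libraries in this group, 7 members lay above all controls (Tlr1, Tlr4, Tlr5, Tlr7, Ddx58, Irf3 and Irf8; 5.75% of genes did) and Tlr3 lay below them (5.37% of genes did). Tlr3 stood at 4.39 and 4.74 CPM in Malat1 ASO and at 5.85, 5.02 and 5.77 in ATV:BACE1. Tlr5 gave a log2 difference of 0.75 (unadjusted p = 0.0525). With the 3 ASO groups together, 26 estimates were above 0 and 14 below, 0 of 40 were called with edgeR (0% of genes), DESeq2 (0.00467%) or the replicate block (0.00467%), and 36 intervals lay below a 2-fold rise. At an unadjusted p under 0.05 there were 1, 1 and 2 members, against 1.23%, 0.986% and 6.96% of genes. No member lay above or below all controls in all 3 groups (0.22% and 0.0467% of genes did).

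OTV:Malat1 was also set against the same ASO without TfR binding. Against nonTV:Malat1, 13 estimates were above 0 and 27 below, with a median of -0.11, and edgeR called 0 of 40 (0% of genes), with 2 at an unadjusted p under 0.05 (0.766% of genes). DESeq2 called 0 (0.00467%) with 2 at that p (0.551%), and the block called 0 (0%) with 4 (3.97%). Gbp6 stood at 1.14, 0.662 and 0.645 CPM in nonTV:Malat1 and 0.478, 0.571 and 0.415 in OTV:Malat1 (-0.78, SE 0.300, unadjusted p = 0.0249). Oasl2 stood at 2.27, 1.95 and 2.00 in OTV:Malat1, below all nonTV:Malat1 libraries (-0.56, SE 0.233, unadjusted p = 0.0353; 0.00684 with the block; adjusted p = 1). Both genes were among the 2 of 40 members below without overlap (1.36% of genes), and Tlr5 and Tlr13 were above (2.7% of genes). Against Malat1 ASO, 0 of 40 were called (0% of genes) and 0 had an unadjusted p under 0.05 (0.621%). DESeq2 called 0 (0.00934%) with 0 at that p (0.364%), and the block called 0 (0%) with 1 (3.62%). Ifit2 lay above without overlap (7.53% of genes) and Irf5 below (3.11%). The smallest p values belonged to Oas2 (0.67, SE 0.387, unadjusted p = 0.112) and Ifit2 (0.36, unadjusted p = 0.144).

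Sums within each cell class gave the same outcome at lower depth. Over 8 classes, 117 member tests were made in OTV:Malat1 against ATV:BACE1, edgeR called 0 (0.00385% of 77917 gene tests were called), and 4 had an unadjusted p under 0.05 (2.28% of gene tests). The number tested was 34 in neurons, 21 in pericytes, 18 in astrocytes, 13 in endothelium, 9 in oligodendrocytes, 9 in glia, 8 in leptomeningeal cells and 5 in microglia, and 0 in smooth muscle and perivascular macrophages. Intervals lay below a 2-fold rise for 29 of 34 members in neurons, 16 of 18 in astrocytes, 5 of 5 in microglia, 9 of 13 in endothelium and 14 of 21 in pericytes. The 5 in microglia were Ifnar2, Irf2, Irf5, Irf8 and Tlr7. No Isg15, Ifit, Oas or Gbp gene had the counts to be tested there, so these intervals do not bound the effectors in microglia. The other 5 comparisons also called 0 of 117. In nonTV:Malat1, Malat1 ASO and the 3 ASO groups against ATV:BACE1, 2, 5 and 5 tests had an unadjusted p under 0.05 (2.07%, 2.62% and 2.58% of gene tests; 0%, 0% and 0.0103% called). Against nonTV:Malat1 and Malat1 ASO, OTV:Malat1 had 3 and 1 (1.74% and 1.94%; 0.00252% and 0.00378% called).

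Endothelium and the class labelled pericytes, where the effectors are highest, gave no call. The effector sum in endothelium was 759 ± 60.7 CPM in ATV:BACE1, 791 ± 102 in nonTV:Malat1, 710 ± 104 in OTV:Malat1 (SD, n = 3 each) and 744 ± 170 in Malat1 ASO (n = 2). Differences between groups were within these spreads. Isg15 in endothelium stood at 230.5, 83.2 and 221 in ATV:BACE1 and 196, 122 and 126 in OTV:Malat1 (-0.42, -1.10 to 0.26), which overlapped. Ifih1 had the smallest p of this class, at 13.2, 49.9 and 40.9 against 91.3, 46.9 and 52.6 (1.01, SE 0.599, -0.22 to 2.23, unadjusted p = 0.104). Without ATV:BACE1 replicate 1, its lowest library, the log2 difference was 0.50 (unadjusted p = 0.451).

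In the class labelled pericytes, the effector sum was 697 ± 95.3 in ATV:BACE1 and 595 ± 124 in OTV:Malat1. Oasl2 stood at 103, 111 and 98.2 CPM in ATV:BACE1 and 76.0, 46.9 and 45.3 in OTV:Malat1. The groups did not overlap, and the log2 difference was -0.89 (SE 0.347, -1.60 to -0.18, edgeR unadjusted p = 0.0162, adjusted p = 1). Oasl2 was 1 of 3 members of 21 that lay below all controls, Ifnar2 among them, and 3.62% of genes did.

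The 1 member above them was Eif2ak2 (5.2% of genes were), the kinase activated by double-stranded RNA, described here after its values were seen. It stood at 30.0, 34.2 and 31.0 CPM in the pericytes of ATV:BACE1 (7, 4 and 6 UMIs), 67.0, 52.1 and 60.9 in nonTV:Malat1, 50.6, 46.9 and 68.0 in OTV:Malat1 (10, 12 and 6 UMIs) and 61.3 and 53.7 in Malat1 ASO. All 8 libraries given the Malat1 ASO were thus above the 3 controls, as for 0.662% of genes, and for nonTV:Malat1 and Malat1 ASO alone 4.52% and 9.99% of genes were. The log2 difference was 0.68 in OTV:Malat1 (SE 0.426, -0.19 to 1.55, edgeR unadjusted p = 0.12, adjusted p = 1), 0.97 in nonTV:Malat1 (SE 0.389, unadjusted p = 0.0189, adjusted p = 0.974) and 0.84 in the 3 ASO groups together (SE 0.342, unadjusted p = 0.0209, adjusted p = 1). These comparisons share the control libraries, and none was called. Together, Ifih1, Ddx58 and Eif2ak2 summed to 133, 111 and 119 CPM in ATV:BACE1, 186, 187 and 178 in nonTV:Malat1, 162, 160 and 147 in OTV:Malat1, and 208 and 102 in Malat1 ASO. The last group held both the highest and the lowest library. The 7 Oas and Oasl genes summed to 124, 137 and 139 CPM in ATV:BACE1, 137, 125 and 122 in nonTV:Malat1, 91.2, 66.4 and 56.7 in OTV:Malat1, and 123 and 75.1 in Malat1 ASO. OTV:Malat1 and Malat1 ASO were below all controls in this sum, which holds Oasl2. Of single genes in pericytes, 3.62% and 8.06% were below all controls in these 2 groups. Of the interferon receptor genes in pericytes, Ifnar2 stood at 300, 265 and 305 in ATV:BACE1, 268, 208 and 258 in nonTV:Malat1, 253, 234 and 204 in OTV:Malat1, and 303 and 247 in Malat1 ASO. OTV:Malat1 did not overlap with the controls and the other groups did (-0.36 in OTV:Malat1, SE 0.214, edgeR unadjusted p = 0.102, adjusted p = 1). Ifnar1 stood at 163, 214 and 160 in ATV:BACE1, 160, 146 and 131 in nonTV:Malat1, 182, 160 and 125 in OTV:Malat1, and 112 and 102 in Malat1 ASO. Malat1 ASO lay below all controls (8.06% of genes did; -0.72, SE 0.276, unadjusted p = 0.0149, adjusted p = 1) and OTV:Malat1 overlapped with them. Ifnar1 gave -0.38 in the 3 ASO groups together (SE 0.203, unadjusted p = 0.071, adjusted p = 1). Endothelial markers in the pericyte class ran from 9695 to 11772 CPM in ATV:BACE1 and from 10212 to 11501 in OTV:Malat1, and pericyte markers from 5161 to 5405 and from 5225 to 5875.

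In the class labelled leptomeningeal cells, 1 library stood apart. The effector sum was 193, 115 and 183 CPM in ATV:BACE1, 212.5, 233 and 197 in nonTV:Malat1, 192 and 147 in Malat1 ASO, and 232, 168 and 527 in OTV:Malat1. OTV:Malat1 replicate 5 was above all others and had the fewest nuclei of this class (114, with 111984 UMIs). The class's own markers were lowest in that library too, at 768 CPM (86 UMIs), against 986 to 1235 in the other 10. The nonTV:Malat1 sums also lay above all 3 controls. In OTV:Malat1 replicate 5, Oasl2 reached 143 CPM (16 UMIs), Ifih1 80.4 (9 UMIs), Ifit3 71.4 (8 UMIs) and Gbp7 62.5 (7 UMIs), the highest of the 11 libraries for each. By library, Oasl2 stood at 29.6, 22.9 and 38.7 in ATV:BACE1 and 68.7, 31.8 and 143 in OTV:Malat1 (1.20, SE 0.491, 0.19 to 2.22, unadjusted p = 0.0224, adjusted p = 1). Without OTV:Malat1 replicate 5 it gave 0.81 (unadjusted p = 0.106). The nonTV:Malat1 libraries also lay above all controls for Oasl2, as for 259 of 6529 genes. In this class, summed perivascular macrophage markers (6 genes) ran from 0 to 27.7 CPM in ATV:BACE1, 7.24 to 10.3 in nonTV:Malat1, 12.9 to 71.4 in OTV:Malat1 and 0 to 19.2 in Malat1 ASO. Blood leukocyte markers (11 genes, with Cd3g, Nkg7, S100a9 and Ly6c2 at 0) ran from 11.5 to 16.6, 5.17 to 8.04, 26.8 to 31.8 and 3.83 to 4.90 in the same order. Their part in the result was not tested.

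In microglia, astrocytes, oligodendrocytes, neurons and the class labelled glia, the effector sums were low and overlapped between OTV:Malat1 and ATV:BACE1. The class labelled glia carried choroid plexus markers at 4351 CPM, above its astrocyte markers at 1229. In microglia the sum was 79.4 ± 53.2 CPM in ATV:BACE1 and 90.2 ± 28.3 in OTV:Malat1, in astrocytes 49.2 ± 7.74 and 52.8 ± 6.63, in oligodendrocytes 22.0 ± 2.58 and 21.9 ± 3.09, and in neurons 19.9 ± 2.30 and 20.3 ± 4.10. In glia it was 37.1, 23.3 and 13.8 in ATV:BACE1, 31.9, 46.1 and 57.8 in nonTV:Malat1, 27.9, 59.8 and 47.2 in OTV:Malat1, and 28.8 and 51.6 in Malat1 ASO, which overlapped. In oligodendrocytes nonTV:Malat1 (24.6, 25.9 and 30.6) and Malat1 ASO (28.8 and 26.6) lay above the controls (23.7, 19.0 and 23.3), whereas OTV:Malat1 (19.9, 25.5 and 20.5) overlapped with them. Of 12362 single genes in this class, 396 lay above the controls in nonTV:Malat1 and 867 in Malat1 ASO. In astrocytes Malat1 ASO (31.2 and 39.7) lay below the controls (41.4, 49.3 and 56.9), as 1113 of 14041 genes did. The member with the smallest p in microglia was Irf8 (-0.38, unadjusted p = 0.224), and in oligodendrocytes it was Ifnar2 (-0.31, unadjusted p = 0.205). Irf8 in microglia stood at 212, 171 and 202 in ATV:BACE1 and 150, 186 and 128 in OTV:Malat1. The groups overlapped. The sum of Ifih1, Ddx58 and Eif2ak2 in microglia did not overlap, at 78.1, 53.9 and 77.7 in ATV:BACE1 and 129, 136 and 102 in OTV:Malat1, with 78.3, 152 and 74.6 in nonTV:Malat1 and 98.6 and 61.5 in Malat1 ASO. It rests on 126 UMIs over the 11 libraries, each of the 3 genes had 0 to 14 in a library, and none had the counts to be tested in this class. The sum was picked after its values were seen. Of single genes in microglia, 155 of 3400 were higher in OTV:Malat1 without overlap.

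**Figure D5:**
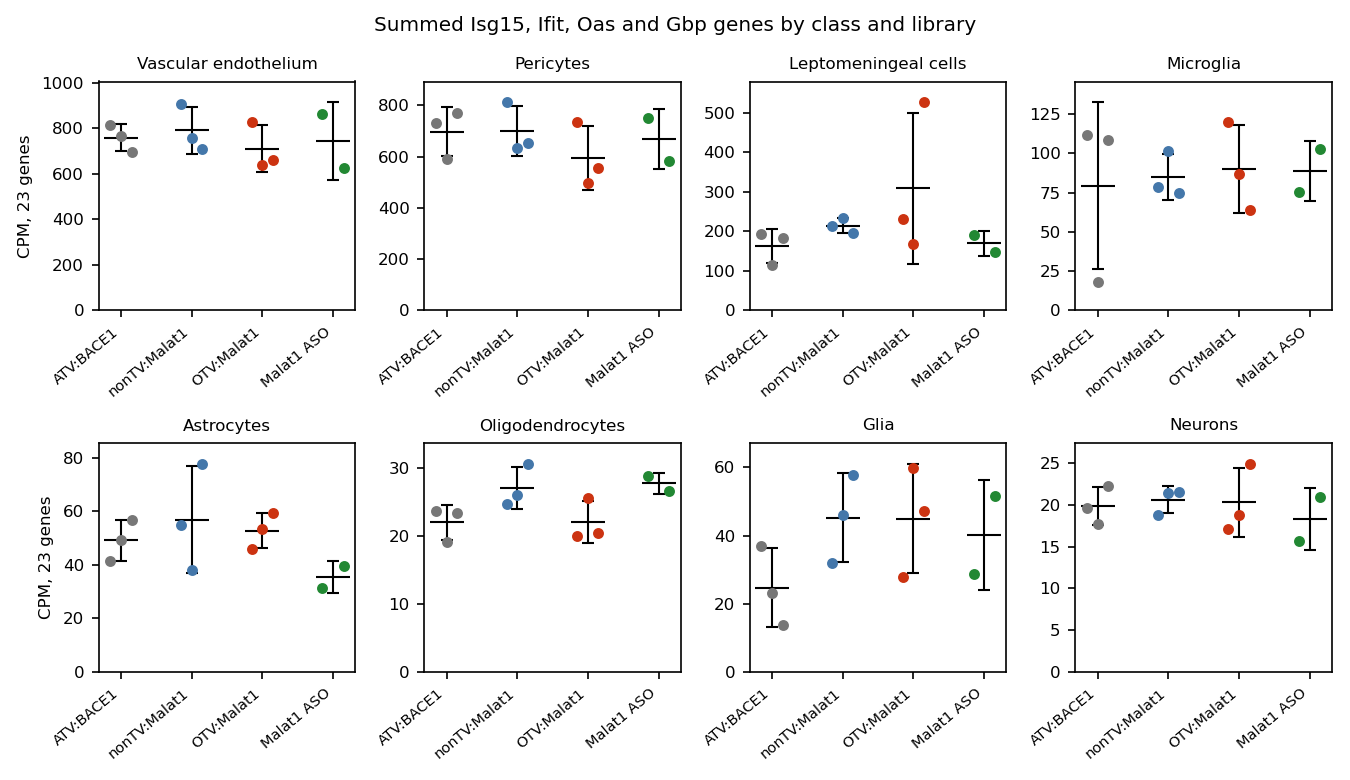
Summed CPM of the 23 effector genes (Isg15, Ifit, Oas and Gbp) in each of 8 deposited classes, 1 point per library, with the group mean (line) and SD (bars); each panel has its own axis from 0. Groups overlap in endothelium, pericytes, microglia and neurons, and OTV:Malat1 replicate 5 stands at 527 in leptomeningeal cells. Malat1 ASO lies below ATV:BACE1 in astrocytes, and nonTV:Malat1 and Malat1 ASO lie above it in oligodendrocytes.

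Whether the change of a member differed between classes was tested within libraries, as a class's log2 level minus that of neurons. With limma, 0 members were called in OTV:Malat1 against ATV:BACE1 in any of 7 classes. All genes called were 0% in astrocytes, microglia, pericytes, leptomeningeal cells and glia, 0.00809% in oligodendrocytes and 0.0225% in endothelium. At an unadjusted p under 0.05 there was 1 of 18 members in astrocytes (Irf9, 0.72; 3.91% of genes), 2 of 20 in pericytes (among them Gbp2, -1.33; 3.51% of genes) and 1 of 8 in leptomeningeal cells (Oasl2, 1.28; 4.57% of genes). There were 0 in oligodendrocytes (3.69% of genes), microglia (3.41%), endothelium (4.77%) and glia (5.83%).

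Other genes of the pathway were read in the same fits. Of 38 adaptors and regulators of sensing (such as Myd88, Mavs, Tbk1 and Sting1), 36 were tested in all nuclei. Of 42 further interferon-induced genes (such as Rsad2, B2m and Psmb8), 38 were tested, and of 15 inflammatory cytokines and chemokines, 3. With edgeR 0 were called in either direction in OTV:Malat1 against ATV:BACE1, where 0% of all genes were, and 0 of each list had an unadjusted p under 0.05 (0.752% of all genes). The median log2 differences were 0.012, -0.026 and 0.080. In the class sums, 137, 132 and 7 tests gave 0 calls, with 6 (2 higher and 4 lower), 3 (all lower) and 0 at an unadjusted p under 0.05. Over all genes, 0.00385% of such tests were called and 2.28% had an unadjusted p under 0.05. DESeq2 and the replicate block called 0 of these genes too, in each of the 6 comparisons. Outside this contrast, Cxcl10, an interferon-induced chemokine, had a log2 difference of -2.63 in OTV:Malat1 against nonTV:Malat1 (SE 0.864, edgeR unadjusted p = 0.0111, adjusted p above the threshold), and Parp14 one of 0.55 in nonTV:Malat1 against ATV:BACE1 (unadjusted p = 0.0386). Each was the 1 of 38 further interferon-induced genes at an unadjusted p under 0.05 with edgeR, as 0.766% and 0.901% of all genes were. How far single libraries made the Cxcl10 value was not tested. In OTV:Malat1 against Malat1 ASO, 1 of these 38 was lower at that p (0.621% of all genes).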

How the data were processed

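Nuclei of 11 mouse brain libraries were sequenced by droplet single-nucleus RNA-seq. The authors deposited 1 matrix of UMI counts per gene and nucleus, and a table per nucleus that gives the library, class, percent of mitochondrial UMIs and a doublet score as a fraction of artificial neighbours. The submitters' processing notes name Cell Ranger 5.0.0, Seurat 4 and mm10, and what filters were set is not stated there; the values hold at least 499 UMIs and at most 5000 genes per nucleus. The authors' doublet calls (10.4% of nuclei, 7.06% to 16.0% per library) were kept in the sums.

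Counts were summed per library over all nuclei, and per deposited class with at least 20 nuclei in a library and 2 libraries per group. edgeR 4.0.16 (R 4.3.3; TMM, filterByExpr, quasi-likelihood test over all groups) was fitted on all genes, with Benjamini-Hochberg adjustment per fit at 0.05 and 6 comparisons. limma 3.58.1 (prior count 2) tested differences between classes. Intervals were widened where edgeR bounds p by a Poisson test. Alternatives were DESeq2 1.42.0, a replicate block, library totals without TMM, no filter, no called doublets, at least 50 nuclei, and leaving out each library. Scripts were tested on simulated data. Results of some members are not reported here. The members and lists were chosen with earlier results of these data known. Named genes are a fixed set plus the 2 members with the smallest p in each comparison over all nuclei. Added to these is the 1 with the smallest p in each of 5 classes for OTV:Malat1 against ATV:BACE1. Class members at an unadjusted p under 0.05 and the leptomeningeal genes were named after their values were seen. So were Cxcl10, Parp14 and the family sums picked within single classes. Libraries with the same number deviated together (r from 0.566 to 0.875 over 15 pairs of libraries, 10434 genes), and the number matches the deposited batch. The labels do not say outright that each library is 1 mouse, so p values measure the spread between libraries. Zero limits use 3 counts and cover counting error only.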

Additional observations from a re-analysis of the deposited data

How the results depend on the processing

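No member was called in any of 289 alternative counts of calls over 19 results (edgeR, DESeq2 and limma, all 0). The smallest adjusted p of a member over the edgeR and DESeq2 fits was 0.273. At an unadjusted p under 0.05, 0 to 2 members of OTV:Malat1 against ATV:BACE1 in all nuclei were found over the settings. The number of members with an interval below a 2-fold rise ran from 29 to 36. Of 549 alternative log2 values for 34 named results, 527 kept their sign. Of those that turned, Ddx58 gave 0.026 on library totals without TMM; Irf3 gave -0.0088 with the replicate block, -0.0071 with DESeq2 and -0.011 without called doublets; Gbp3 gave 0.0012 with the replicate block. The cause was not tested. Leaving out 1 library at a time moved the OTV:Malat1 minus ATV:BACE1 value from -0.26 to 0.041 for Tlr3, -0.030 to 0.27 for Ifih1, -0.083 to 0.033 for Ddx58, -0.22 to 0.11 for Irf3, -0.25 to 0.14 for Irf7, -0.17 to 0.0064 for Stat2, -0.20 to 0.29 for Ifit1, -0.12 to 0.13 for Ifit2, -0.32 to 0.087 for Isg15 and -0.32 to 0.55 for Gbp3. For the following values leaving out 1 library kept the sign but moved the size. OTV:Malat1 minus ATV:BACE1 ran from 0.076 to 0.37 for Eif2ak2. OTV:Malat1 minus nonTV:Malat1 ran from -0.68 to -0.32 for Oasl2 and from -0.93 to -0.45 for Gbp6. nonTV:Malat1 minus ATV:BACE1 ran from 0.27 to 0.62 for Oasl2 and from 0.35 to 0.74 for Gbp8. OTV:Malat1 minus Malat1 ASO ran from 0.28 to 0.95 for Oas2 and from 0.24 to 0.50 for Ifit2. The replicate block, with numbers that pair the libraries by batch, changed no call of a member. Groups of 2 or 3 libraries and the few nuclei of vascular and microglial classes limit what could be seen, and 10 members were below the count needed for a test in all nuclei.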

Other observations

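The replicate number, which carries batch, sex and age together, was also read as a term of the blocked edgeR fit, a comparison added after the data were seen. In all nuclei, replicate 1 against replicates 4 and 5 called 8 of 40 members, and 36.8% of all genes. Isg15 (log2 difference 0.52, SE 0.131), Oasl2 (0.38, SE 0.130) and Irf3 (0.34, SE 0.072) were higher in replicate 1, and Irf1 (-0.39, SE 0.101), Eif2ak2 (-0.38, SE 0.084), Ifit2 (-0.35, SE 0.108) and Irf4 (-1.54, SE 0.532) were among those lower. In neurons 10 of 34 members were called (35.9% of genes) and in astrocytes Tlr3 was the 1 of 18 called, with a log2 difference of -0.41 (12.4% of genes). In the other 6 classes 0 members were called with edgeR, where 10.8% of genes were in oligodendrocytes, 6.21% in microglia, 4.93% in leptomeningeal cells, 2.74% in glia, 1.08% in endothelium and 0.743% in pericytes. In replicate 4 against replicate 5, 0 of 40 members were called in all nuclei (18.2% of genes) and 0 of 34 in neurons (20.9%). In astrocytes 2 of 18 were called (6.67% of genes), Ifnar2 with a log2 difference of -0.66 (SE 0.181) and Irf2 with 0.40 (SE 0.121), and in the other 6 classes 0 (6.29%, 0.118%, 0.306%, 0.0196%, 0.0674% and 0.242% of genes, in the same order). Batch and sex cannot be told apart in the first comparison, nor batch and age in the second, where all mice were male.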
